A study of Schizosaccharomyces japonicus with 6 samples.

Results

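Tj1 is an LTR retrotransposon family of the fission yeast *Schizosaccharomyces japonicus*, and its loci are described here by their transcript levels and by what surrounds them in the genome. All loci of the deposited table whose identifier is Tj1 followed directly by - or _ were taken, which keeps Tj10 out. This gave 9 loci among the 266 loci of the families Tj1 to Tj10 and the 5152 loci of the table. Of the 9, 2 are partial elements and 7 are solo LTRs, and 0 are full-length elements. Polyadenylated RNA was sequenced from 3 libraries of a wild-type strain and 3 libraries of the dcr1Δ* strain, both grown in rich medium at 32 °C. Both strains carry mat-P2028, ura4-D3 and ade6(sj)-domE and are of the h- mating type. The dcr1Δ* strain carries in addition dcr1-dis::natMX6, a disruption of the gene for Dicer, and the R77W change in mpe1, so the effects of these alleles cannot be told apart in it. It is 1 rare isolate that survived the loss of Dcr1.

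An LTR retrotransposon is copied through an RNA intermediate: its transcript runs from one long terminal repeat (LTR) to the other, encodes Gag and the protease, reverse transcriptase and integrase, and is reverse transcribed into DNA that is inserted elsewhere. Recombination between the LTRs of a copy removes the coding part and leaves a solo LTR, and other losses leave partial elements. In RNA interference Dicer cuts double-stranded RNA into small RNAs that guide Argonaute to matching transcripts, and in *S. japonicus* these small RNAs correspond mainly to retrotransposons. Tj1 belongs, with Tj4 and Tj6, to the lineage related to Tf1 and Tf2 of *Schizosaccharomyces pombe*, whereas the other families examined are related to Ty3 of *Saccharomyces cerevisiae*.

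The measurement used is the authors' average logCPM, the log2 of CPM (read counts scaled to a common library total), over all 6 libraries. It is 1 value per locus for both strains together. No spread between libraries can be given from it, the depth of each library is unknown, and the levels below do not say which strain the transcripts came from. The table's remaining columns hold the authors' own comparison of the strains and were not used. The 266 retrotransposon loci held 0.653% of the CPM of all 5152 loci. The lowest value, 0.0628 CPM, was shared by 15 loci and was taken as the level of a locus without reads. If this level stands for edgeR's default prior count of 2, the average library held 31840491 counts, and the reads behind each level follow from it. On that assumption a 95% exact Poisson interval was set around each level from the reads of all 6 libraries. The interval covers counting error only.

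Of the 266 retrotransposon loci, only 12 stood at the level of loci without reads. All 9 Tj1 loci lay above that level, and all were low. The highest was Tj1_partial_retrotransposon-5.1, a piece of 1086 bases on supercont5.5 from 56635 to 57720 of the SJ5 assembly, plus strand. Its average level was 3.36 CPM (counting interval, 3.11 to 3.63 CPM; logCPM, 1.75), or about 105 reads in an average library. It ranked 80 among the 266 retrotransposon loci and 4712 among all 5152 loci. The median logCPM was 5.93 over all loci of the table and 6.03 over those outside Tj1 to Tj10. Even this highest Tj1 locus was thus far below the median per locus, with lengths not taken into account.

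The other partial element, Tj1_partial_retrotransposon-1.1, is the longest Tj1 locus, with 4901 bases on supercont5.1 from 1819503 to 1824403, plus strand. Its level was 1.44 CPM (counting interval, 1.28 to 1.62 CPM), about 43.8 reads in an average library. This was lower than the level of the shorter piece on supercont5.5, and the intervals of both partial elements did not overlap.

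The solo LTRs formed a graded series from 1.79 down to 0.110 CPM. Tj1-type_LTR-1.3, on supercont5.1 from 1841974 to 1842117, plus strand, was the highest of them at 1.79 CPM (counting interval, 1.61 to 1.99 CPM). Tj1-type_LTR-1.2, on supercont5.1 from 1824730 to 1824873, minus strand, followed at 1.04 CPM (0.906 to 1.19 CPM). Tj1-type_LTR-28.1, on the small contig supercont5.28 from 1858 to 2001, plus strand, stood at 0.632 CPM (0.531 to 0.751 CPM).
Tj1-type_LTR-1.1, on supercont5.1 from 1810410 to 1810553, minus strand, stood at 0.443 CPM (0.362 to 0.543 CPM). These 4 LTRs are each 144 bases long, and among the 63 solo LTRs of the table they are the only ones of that length.

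The 3 remaining solo LTRs were close to the level of loci without reads, and their lengths differ from 144 bases. Tj1-type_LTR-1.4, with 140 bases on supercont5.1 from 1814905 to 1815044, minus strand, stood at 0.183 CPM, about 3.84 reads in an average library. Tj1-type_LTR-3.1, with 230 bases on supercont5.3 from 463398 to 463627, plus strand, stood at 0.157 CPM, about 3.01 reads. Tj1-type_LTR-2.1, with 194 bases on supercont5.2 from 965579 to 965772, minus strand, was the lowest at 0.110 CPM, about 1.50 reads. With so few reads the counting interval of each overlapped that of the next, and no test of the differences among these 3 was made.

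Read as an order, some neighbouring levels had overlapping counting intervals, which does not show that those levels are equal. Neighbours whose counting intervals overlapped were Tj1-type_LTR-1.3 and Tj1_partial_retrotransposon-1.1, Tj1-type_LTR-28.1 and Tj1-type_LTR-1.1, and the 3 lowest LTRs. The other neighbours did not overlap by counting error. Whether they also differ beyond the spread between libraries was not tested. Moreover, reads that map to several places were split into fractions, so Tj1 loci of like sequence share reads and their levels are not independent.

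**Figure D1:**
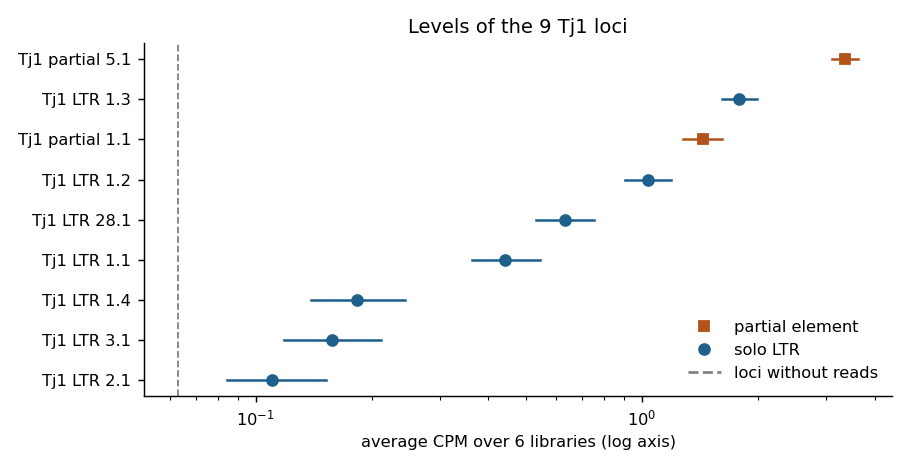
Average level of each Tj1 locus in CPM over 6 libraries (log axis), squares for partial elements and circles for solo LTRs, with 95% counting intervals as lines and the level of loci without reads (0.0628 CPM) as a dashed line. The levels ran from 0.110 to 3.36 CPM, and the 3 lowest LTRs lay nearest to the dashed line.

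Levels of loci of such unequal length can be set against each other only per length. Per kilobase, Tj1-type_LTR-1.3 was highest at 12.4 CPM per kb, followed by Tj1-type_LTR-1.2 at 7.22 CPM per kb and Tj1-type_LTR-28.1 at 4.39 CPM per kb. The short partial element stood at 3.10 CPM per kb and Tj1-type_LTR-1.1 at 3.08 CPM per kb. The longest locus, Tj1_partial_retrotransposon-1.1, was the lowest of all at 0.294 CPM per kb, although it ranked 3 by its level per locus. Reads that reach beyond a short LTR can be counted on it in full, which raises its value per kilobase. With 300 bases added to every length, a choice made after the data were seen, Tj1-type_LTR-1.3 was still first at 4.03 CPM per kb and Tj1_partial_retrotransposon-1.1 ranked 8 of 9.

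The surroundings of the loci were examined next, from the coordinates that the study lists for 396 elements of 21 Tj families and from the RefSeq annotation of SJ5. That annotation names no contig, and contigs were assigned from its runs of rising positions for supercont5.1, supercont5.2 and supercont5.3. With this order, annotated genes shared 2439 bases with elements of Tj1 to Tj10, against 40729 to 103373 bases for the other 5 orders. The 7 Tj1 loci on these contigs could thus be placed among genes, and those on supercont5.5 and supercont5.28 were not.

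Tj1 loci lay beside genes for transfer RNAs (tRNAs), the adaptors of translation, which RNA polymerase III transcribes. Of the 7 placed loci, 6 were within 50 bases of a tRNA gene (85.7%), and the remaining locus was 196 bases from one. Among the 121 loci of Tj2 to Tj10 on the same contigs, 1 was within 50 bases of a tRNA gene (0.826%). This was Tj6_partial_retrotransposon-1.3, at 12 bases. The median distance to the nearest tRNA gene was 12 bases for the Tj1 loci and 134568 bases for those of the other families together. Families differed among themselves: the median was 126.5 bases for the 12 loci of Tj6 and 860.5 bases for the 14 loci of Tj7. Within 500 bases of a tRNA gene were 9 of the 12 Tj6 loci, 3 of the 14 Tj7 loci and all 7 Tj1 loci, so that lying near tRNA genes was shared with Tj6. The limit of 50 bases was set after the distances had been seen, and no test was made. Of the 7 Tj1 loci, 5 lie in a stretch of supercont5.1 where the order of features partly recurs, so they may not be independent. The 12 other elements with a value in that stretch lay 101 to 861 bases from a tRNA gene.

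The distance was the same in 3 LTRs and varied in the others. Tj1-type_LTR-1.2, Tj1-type_LTR-1.3 and Tj1-type_LTR-1.4 each ended 12 bases from a tRNA gene, and Tj1-type_LTR-3.1 and Tj1-type_LTR-2.1 lay 22 and 46 bases from one. In all 5 of these LTRs the tRNA gene was on the downstream side, following the LTR on the strand it is annotated on. Tj1_partial_retrotransposon-1.1 had a tRNA gene on either side, 14 bases before its start and 11 bases after its end. Tj1-type_LTR-1.1 differed, with tRNA genes 196 bases upstream and 233 bases downstream of it. Ty3 of *S. cerevisiae* is known to insert at the start sites of genes transcribed by RNA polymerase III. Tj1, however, is of the lineage related to Tf1 and Tf2, not of the one related to Ty3. The strand of the tRNA genes was not available, so which end of them faces a Tj1 locus is not known here. How the Tj1 loci came to lie beside tRNA genes was not tested. The tRNA genes have no values in the table.

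**Figure D2:**
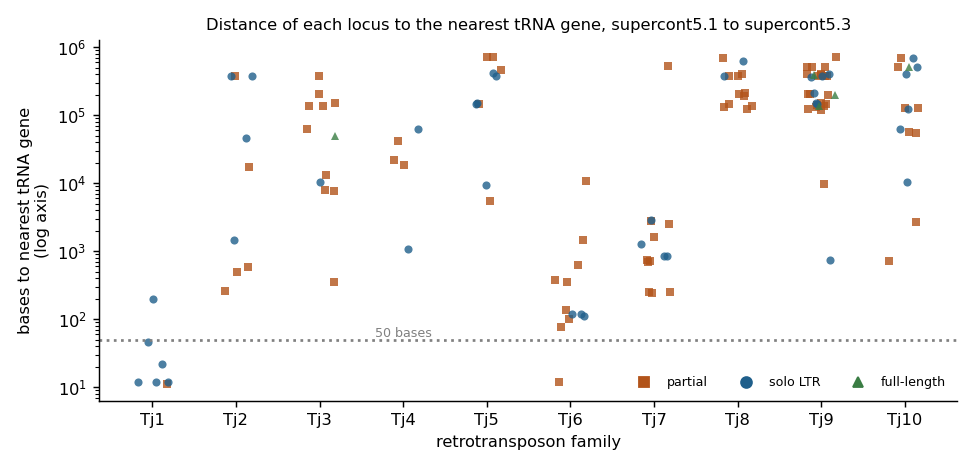
Distance in bases (log axis) from each locus of Tj1 to Tj10 on supercont5.1, supercont5.2 and supercont5.3 to the nearest annotated tRNA gene, by family, with squares for partial elements, circles for solo LTRs and triangles for full-length elements. Of the 7 Tj1 loci, 6 lie under the dotted line at 50 bases, as does 1 Tj6 locus among the 121 others.

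Elements of Tj6, which shares a lineage with Tj1, and of Tj7 recurred beside the same 3 Tj1 LTRs. How often they lie beside loci of other families was not counted. A Tj6 neighbour was not particular to Tj1 LTRs: Tj7-type_LTR-1.4 begins at 1825579, directly after Tj6_partial_retrotransposon-1.9 ends at 1825578. Tj1-type_LTR-1.2, Tj1-type_LTR-1.3 and Tj1-type_LTR-28.1 lay 223, 192 and 283 bases from a partial Tj6 element. In all 3 cases the Tj6 element was on the upstream side of the LTR and on the opposite strand, so that the LTR and the Tj6 piece pointed away from each other. The partial element Tj1_partial_retrotransposon-1.1 lay 693 bases from Tj6_partial_retrotransposon-1.9, but on the same strand as it. The 3 LTRs near Tj6 pieces were also the highest of the 7 Tj1 solo LTRs. The nearest Tj6 pieces were higher still per locus: Tj6_partial_retrotransposon-1.9, beside Tj1-type_LTR-1.2, stood at 16.8 CPM. Tj6_partial_retrotransposon-1.7, beside Tj1-type_LTR-1.3, stood at 5.11 CPM, and Tj6_partial_retrotransposon-28.1, beside Tj1-type_LTR-28.1, at 1.65 CPM. Per kilobase the LTR exceeded its neighbour beside Tj6_partial_retrotransposon-1.7, with 12.4 against 9.97 CPM per kb, and was below it in the other 2 cases. Elements of Tj7 lay next on the same side and strand as the Tj6 pieces, at 705 bases from Tj1-type_LTR-1.2 (Tj7-type_LTR-1.4, 5.68 CPM) and at 704 bases from Tj1-type_LTR-1.3 (Tj7-type_LTR-1.1, 3.98 CPM).
Some elements within 1 kb were far higher than the nearest pieces. Tj7_partial_retrotransposon-28.1, at 687 bases from Tj1-type_LTR-28.1, stood at 1034 CPM. Beyond the Tj7 LTRs, Tj6_partial_retrotransposon-1.2 and Tj6_partial_retrotransposon-1.1, each 915 bases from its Tj1 LTR, stood at 329 and 304 CPM. Whether reads from these Tj6 and Tj7 elements reach the LTRs was not tested.

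The surroundings themselves were repeated. Around Tj1-type_LTR-1.2 and Tj1-type_LTR-1.3 the same features followed each other in mirror image: a Tj6 piece, the LTR, a tRNA gene at 12 bases and another tRNA gene at 243 and 241 bases. Around Tj1-type_LTR-1.1 and Tj1-type_LTR-1.4 tRNA genes lay upstream at 196, 503 and 1181 bases and at 195, 499 and 1179 bases, respectively. The level of Tj1-type_LTR-1.1 was 0.443 CPM and that of Tj1-type_LTR-1.4 was 0.183 CPM, and their counting intervals did not overlap.

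**Figure D3:**
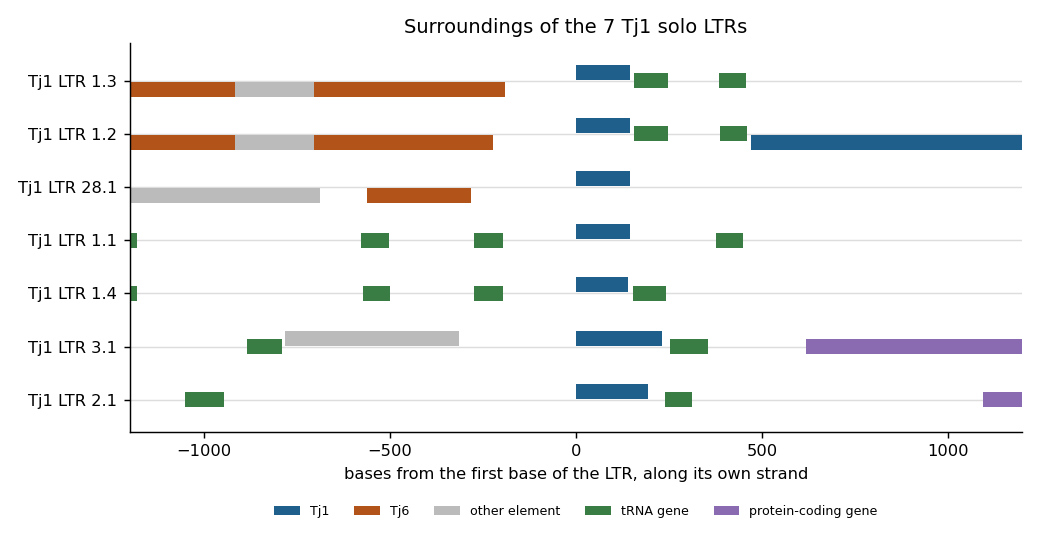
Features around the 7 Tj1 solo LTRs, as bases from the first base of each LTR along its own strand. Elements on the LTR's strand are drawn above the line and those on the other strand below it, while genes are drawn on the line, and no genes were placed around the LTR on supercont5.28. The tRNA gene follows the LTR at 12 to 46 bases in 5 of the 6 placed LTRs, and a Tj6 element lies upstream on the other strand in 3 LTRs.

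Of the 9 Tj1 loci, 5 lie together on supercont5.1, in a stretch of 31.7 kb from 1810410 to 1842117. It holds 19 listed elements, which besides Tj1 are 6 of Tj7, 5 of Tj6, 2 of Tj19 and 1 of Tj10. It also holds 21 annotated tRNA genes and 0 protein-coding genes. The nearest protein-coding gene to a Tj1 locus of the stretch was 36309 bases away. The Tj1 loci were minor contributors here: they held 4.89 CPM in sum, 0.683% of the CPM of the stretch, and the 12 other elements with a value held 712 CPM. Of these 12, 10 had a higher level than the highest Tj1 locus of the stretch. The highest of them was Tj6_partial_retrotransposon-1.2 at a logCPM of 8.36, which is also the highest of the whole Tj6 family.

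The LTRs on supercont5.2 and supercont5.3 lie in another setting. Within 10 kb of Tj1-type_LTR-2.1 there were 8 protein-coding genes and 8 tRNA genes but only 1 other element, a solo LTR of Tj6 listed at the level of loci without reads, at 5249 bases. The 8 protein-coding genes had logCPM values from 4.39 to 11.49, and the nearest, SJAG_03371, was 901 bases away. Within 10 kb of Tj1-type_LTR-3.1 there were 12 protein-coding genes with logCPM values from −2.37 to 9.58, of which the nearest was SJAG_04635 at 387 bases with a logCPM of 3.24. The only other element was a solo LTR of Tj17 at 315 bases on the same strand. Neither LTR overlapped a gene, and both were at the bottom of the Tj1 order.

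Tj1_partial_retrotransposon-5.1 had 10 elements within 5 kb, the most of any Tj1 locus at that distance. Within 10 kb it had 14 and Tj1-type_LTR-1.3 had 15, and within 20 kb they had 26 and 33. It begins directly after a solo LTR of Tj13 and shares its last base with a partial element of Tj15, both on its own strand. Neither has a value in the table. It was the only Tj1 locus that overlapped another listed element.

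Set beside the other families, Tj1 was small and low in sum but not the lowest. Its 9 loci span 7.13 kb and held 9.16 of the 6547 CPM on all retrotransposon loci, or 0.140%. Only Tj4 held less, with 1.79 CPM on 13 loci, and Tj6 held 998 CPM on 27 loci. Per kilobase of annotated element Tj1 ranked 8 of 10 families, with 1.28 CPM per kb, between Tj5 at 1.96 and Tj10 at 0.520 CPM per kb. Tj6 had 28.1 CPM per kb and Tj4 had 0.0710 CPM per kb. The median logCPM of the Tj1 loci was −0.66, against −0.43 over all 266 retrotransposon loci, −3.13 for Tj4 and 0.72 for Tj6. The highest locus of Tj4, Tj4_partial_retrotransposon-5.1, stood at a logCPM of −1.75, below 6 of the Tj1 loci.

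The logCPM of the Tj1 loci spanned 4.93, and only the Tj4 loci spanned less, at 2.24, while the Tj6 loci spanned 12.36. The highest Tj1 locus held 36.7% of the family's CPM. This share was larger only in Tj7, at 71.9%, and in Tj2, at 41.4%. In the remaining families it ran from 11.1% in Tj9 to 33.0% in Tj6. With 9 loci, Tj1 is also the smallest of the 10 families.

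**Figure D4:**
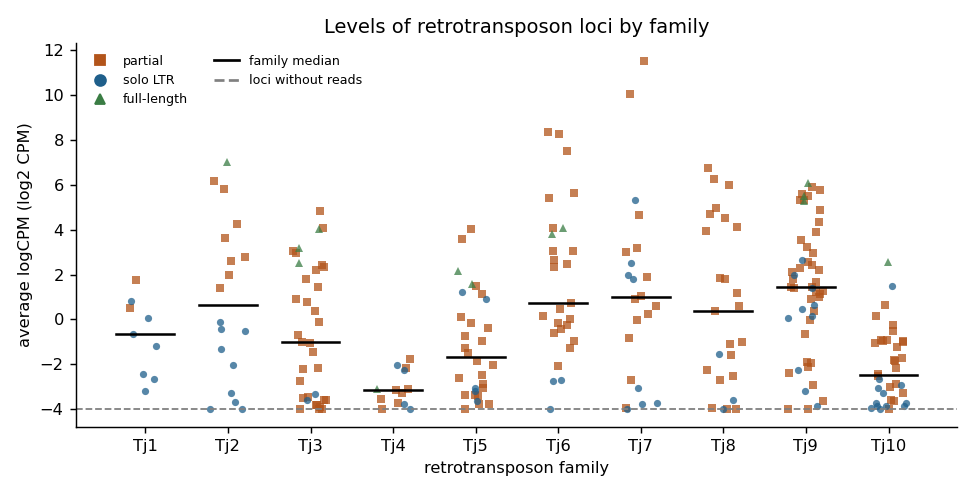
Average logCPM (log2 CPM) over 6 libraries of the 266 retrotransposon loci by family, with squares for partial elements, circles for solo LTRs, triangles for full-length elements, a bar for each family median and a dashed line for the level of loci without reads. The Tj1 loci lie between −3.18 and 1.75, with a median of −0.66, and have no full-length element.

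Within its element types Tj1 stood differently. The 7 Tj1 solo LTRs had a median logCPM of −1.17, and the 56 solo LTRs of the other families had one of −3.05. Of the 7, 6 were above the median of all 63 solo LTRs, which was −2.72, although Tj1-type_LTR-3.1 at −2.67 was only just above it. Per kilobase the medians were 3.08 and 0.773 CPM per kb. The solo LTRs of Tj4 and Tj6, 4 and 3 in number, had median logCPM values of −3.01 and −2.72. The highest solo LTR of the other families stood at 5.33, so that Tj1 LTRs did not lead this class. The best of them, Tj1-type_LTR-1.3, ranked 11 of 63 per locus and 7 of 63 per kilobase. The Tj1 partial elements, at 0.53 and 1.75, ranked 86 and 63 of 190 partial elements, whose median outside Tj1 was −0.02. Per kilobase the same 2 stood at 0.294 and 3.10 CPM per kb and ranked 154 and 74. The median per kilobase outside Tj1 was 1.66 CPM per kb, so the longer Tj1 piece was below it. These are descriptions of levels averaged over both strains, and differences between families were not tested.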

How the data were processed

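According to the labels, reads of 6 libraries (3 per strain, assigned by title) were processed by the authors with Trim Galore 0.4.3.1, STAR 2.7.2b, featureCounts 2.0.1 and edgeR 3.34.0. The paper's methods name other versions of featureCounts and edgeR. Reads were aligned to SJ5, and those mapping to several places were split into fractions. The prior count, normalization and strand setting are not given in the sources used here. The deposited average logCPM is on the log2 scale. The deposited log2 fold changes, F statistics, p-values and FDR values are the authors' comparison of the strains and were not used. The analysis rests on this average alone, so the strains were not compared, and the transcript of dcr1 was not analysed here.

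All 9 Tj1 loci matched listed positions, whose starts are zero-based (5 equal 0) and are printed here in 1-based form. Positions of genes come from RefSeq, and a run of the annotation ended where positions dropped by over 50 kb. Levels in reads used 2 as the prior count. Distances are bases between features. The text names all Tj1 loci, the highest Tj4 and Tj6 loci, and nearest and overlapping features. The tRNA genes, other Tj6 and Tj7 neighbours, Tj17, Tj13 and Tj15 elements and protein-coding genes it describes beyond this were chosen after their positions were seen. Members and lists were chosen with earlier results of these data known. No genome was used, so no sequence is shown. The tools were pandas 2.3.3, scipy 1.17.1, numpy 2.4.6 and matplotlib 3.10.9 under Python 3.11.15. The arithmetic of the conversion to reads was checked on simulated counts made with the same formula and prior count. That check cannot show whether the deposited averages follow this formula.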

Additional observations from a re-analysis of the deposited data

How the results depend on the processing

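The median logCPM of the Tj1 loci was −1.17 for solo LTRs only, 1.14 for partial elements only and 0.29 for loci at −2 or above, against −0.66 for all 9. Their share of retrotransposon CPM was 0.132% with the level of loci without reads subtracted (Wilson 95% interval, 0.125% to 0.138%), 0.197% without the highest locus of each family and 0.0744% without solo LTRs, against 0.140%. The Wilson interval treats reads as independent, rests on the assumed prior count and holds no spread between libraries or strains. Elements near the Tj1 loci, summed over the loci, were 34 within 5 kb and 145 within 20 kb, against 66 within 10 kb. Tj1 loci overlapping another feature were 0 at a minimum of 50% of the locus, against 1. Of the 36 pairs of Tj1 loci, 27 kept their order per kilobase and 30 with 300 bases added. With 20 and 500 bases in place of 50, limits added after the data were seen, 4 and 7 of 7 Tj1 loci were beside a tRNA gene, against 1 and 15 of the 121 other loci, 9 of the 15 being Tj6 loci. Reads per locus scale with the assumed prior count: Tj1_partial_retrotransposon-5.1 had 52.5 reads at a prior count of 1 and 158 at 3. Shares of sequence windows found once and identities between LTRs were not run, as no genome was used. No library could be left out, and no paired analysis was possible because the values used are averages over all 6 libraries. At the 3 lowest LTRs, depth limits the order.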
